A study of Mus musculus with 18 samples.

Results

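The comparison is between mouse embryonic stem (ES) cells that carry the DNMT1 double mutant W465A/W796A and mouse ES cells that carry the triple mutant W464A/W465A/W796A, which has 1 more tryptophan replaced by alanine. It uses 6 of the study's 18 libraries, 3 per group, and the CpGs with at least 5 reads in each of the 6. These are 2460123 CpGs, 11.3% of the 21867550 listed. All groups are Dnmt1-knockout ES cells that were transfected with a pPyCAGIP vector carrying WT or mutant DNMT1 and selected with puromycin, so both groups also share the loss of their own Dnmt1. The other 4 groups carry WT DNMT1, W796A, W465A or W464A/W465A, with 3 libraries each, and the last 2 of these are used below to set the same substitution beside itself without W796A. Several stable lines were made per group. The labels call the libraries biological replicates without stating whether each is a line of its own, so p-values measure the spread between these libraries. The substitutions cannot be checked from CpG counts, and the amount of DNMT1 protein in the lines was not analysed here.

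DNMT1 copies the methylation pattern of the parent strand onto the new DNA strand after replication, which is called maintenance methylation. The tryptophans replaced in W464A and W465A lie in its RFTS (replication foci targeting sequence) domain, which binds histone H3 tails and can also block the catalytic pocket. The tryptophan replaced in W796A lies in the first of its BAH domains, another module that reads histone tails. In ES cells most CpGs outside CpG-dense promoters are methylated, and de novo enzymes (Dnmt3a, Dnmt3b) add methylation that DNMT1 then maintains.

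Methylation was read by enhanced reduced representation bisulfite sequencing (eRRBS). The genome is cut with restriction enzymes (MspI, BfaI and MseI), unmethylated cytosine is converted with bisulfite, and the fragments are sequenced, so that CpG-rich fragments are covered best. The level of a CpG is its methylated reads over all its reads. Levels of regions were taken over 1 kb tiles with at least 3 usable CpGs, from summed reads. The share kept is the level with W464A/W465A/W796A as a percent of the mean level with W465A/W796A.

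The following 6 windows of 200 bases from the reference show the range of responses, 3 from tiles that fell furthest and 3 from tiles that kept most of their level. They are plus-strand sequences of GRCm38, and capitals mark the CpGs that had enough reads in all 6 libraries.
Odf2, coding exon and flanking intron, chr2:29893436-29893635: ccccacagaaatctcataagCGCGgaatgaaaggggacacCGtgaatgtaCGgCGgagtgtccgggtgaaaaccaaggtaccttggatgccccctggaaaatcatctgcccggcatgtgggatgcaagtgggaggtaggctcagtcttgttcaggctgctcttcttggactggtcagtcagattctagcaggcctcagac
Pard3, coding exon and flanking intron, chr8:127603058-127603257: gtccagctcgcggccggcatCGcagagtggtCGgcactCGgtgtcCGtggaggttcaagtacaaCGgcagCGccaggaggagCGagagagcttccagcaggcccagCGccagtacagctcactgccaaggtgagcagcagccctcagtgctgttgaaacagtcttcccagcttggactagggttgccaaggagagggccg
Lrmda, intron, chr14:23015801-23016000: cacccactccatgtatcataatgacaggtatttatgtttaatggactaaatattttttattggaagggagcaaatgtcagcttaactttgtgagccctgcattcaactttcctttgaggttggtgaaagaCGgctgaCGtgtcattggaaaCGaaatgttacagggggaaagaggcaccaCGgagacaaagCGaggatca
Gli2, intron, chr1:118962801-118963000: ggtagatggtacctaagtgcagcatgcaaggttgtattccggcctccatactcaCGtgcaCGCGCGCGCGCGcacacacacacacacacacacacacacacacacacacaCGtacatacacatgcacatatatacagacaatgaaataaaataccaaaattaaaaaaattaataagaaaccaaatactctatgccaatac
Spock1, intron, chr13:57886305-57886504: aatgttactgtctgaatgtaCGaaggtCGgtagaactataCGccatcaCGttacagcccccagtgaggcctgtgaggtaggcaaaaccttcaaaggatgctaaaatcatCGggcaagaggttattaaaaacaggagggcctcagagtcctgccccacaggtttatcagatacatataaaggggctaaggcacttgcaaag
Ttn, coding exon, chr2:76749801-76750000: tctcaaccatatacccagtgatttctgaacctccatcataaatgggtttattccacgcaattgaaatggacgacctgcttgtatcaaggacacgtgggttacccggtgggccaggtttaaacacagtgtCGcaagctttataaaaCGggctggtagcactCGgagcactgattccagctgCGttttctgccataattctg

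In the Odf2 window the 5 CpGs had mean levels of 83.1% to 89.6% with W465A/W796A. Of these, 4 had 0% to 3.33% with W464A/W465A/W796A, and the CpG at base 51 of the window had 22.4%. All 8 CpGs of the Pard3 window fell, from 62.8% to 94.1% in the double mutant to between 0% and 18.8% in the triple mutant. In Lrmda the CpG at base 131 had 91.1% with W465A/W796A and 42.4% with W464A/W465A/W796A, and the CpG at base 181 had 100% and 11.1%. In the Gli2 window the 7 CpGs in and next to the alternating CG run had 61% to 81.9% with W465A/W796A and 57.7% to 86.9% with W464A/W465A/W796A, while the CpG at base 111 had 28.6% and 31.9%. The Ttn window was mixed, with 61.5% and 58.4% at base 161 but 42.2% and 13.9% at base 181. CpGs this close together are mostly read by the same fragments, and each had 5 to 18 reads per library, so single CpGs carry wide counting error.

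Adding W464A to W465A/W796A lowered methylation over nearly the whole measured genome. The mean level over the 2460123 CpGs, each counted once, was 43.7%, 38.4% and 37.9% in the W465A/W796A libraries and 16.3%, 19.14% and 15.2% in the W464A/W465A/W796A libraries. All 3 triple-mutant libraries were below all 3 double-mutant libraries. The mean fell from 40.0% ± 3.23 (SD, n = 3) to 16.9% ± 2.01 (SD, n = 3), a difference of -23.1 points, with an exact two-sided permutation p of 0.1, the smallest this design allows. The share kept was 42.3% ± 5.04 (SD, n = 3), so the difference is several times the spread between replicates. Depth was similar in the groups, with 63624159 to 100749239 CpG calls per library and a median of 10 to 16 reads at these CpGs. Intervals from counts would cover counting error only, since reads were not tied to molecules, and no control sequence gave the rate of bisulfite conversion. Between the tiles of 2 libraries from 1 group, the mean chi-square per degree of freedom was 2.39 to 3.73 over the 6 pairs. CpGs of a tile that are read by the same fragments also raise this value. It therefore cannot tell separate libraries from repeats of 1 library.

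**Figure D1:**
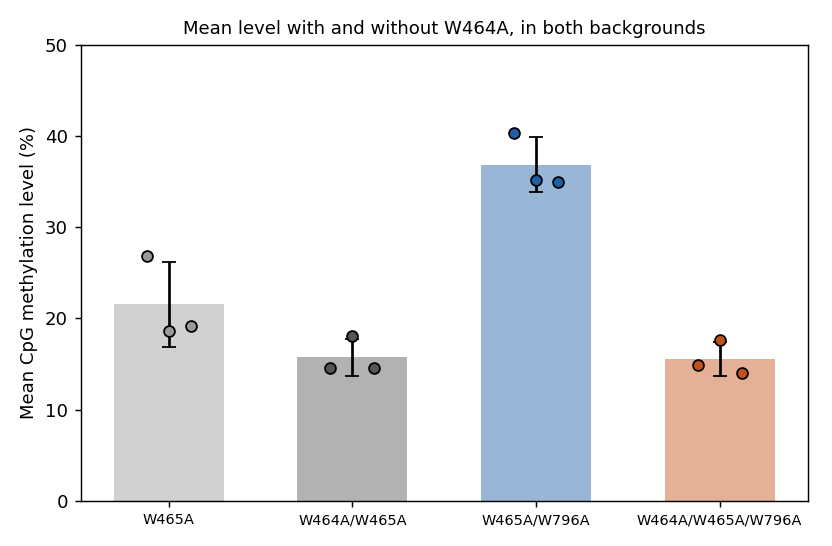
Mean CpG methylation level (%, vertical axis) in 4 groups, over CpGs with 5 reads in all 12 libraries; bars are means, error bars SD of 3 libraries, points single libraries. The W465A/W796A libraries sit between 35.0% and 40.3%, and the W464A/W465A/W796A libraries, like those of W464A/W465A, below 18.1%.

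By tile, the change was a downward shift of most of the distribution. Of 285573 tiles, 223924 (78.4%) were lower with W464A/W465A/W796A when calls needed an adjusted p below 0.05 and 10 points of difference. Just 1 tile was higher (0.00035%). It is intergenic, at chr2:160360001-160361000, had no methylated read in any W465A/W796A library, and had 16.7%, 7.69% and 5.41% in the triple mutant. Limma called 221715 tiles lower and 2 higher, and edgeR 227394 and 3. Among the 248930 tiles of at least 20% in the double mutant, 88.9% were lower. The triple-mutant libraries were all below the double-mutant libraries in 222026 tiles, 77.7% of all tiles. The median difference was -30.6 points, and the 5th and 95th percentiles were -47.3 and -0.22 points.

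The tiles that kept a high level are few. The median tile level was 58.7%, 50.8% and 50% in the W465A/W796A libraries and 19.7%, 23.1% and 18% in the W464A/W465A/W796A libraries. Tiles of at least 50% made up 61.3% of all tiles in the pooled double mutant and 0.724% in the pooled triple mutant. At the level of reads, thinned to 10 per CpG at 714514 CpGs with at least that many in each library, 0.711% to 1.54% of CpGs were methylated on all 10 reads with W465A/W796A. This share was 0.00684% to 0.0336% with W464A/W465A/W796A. CpGs with no methylated read went from 46.3% to 47.7% of CpGs in the double-mutant libraries to between 55.7% and 59.2% in the triple-mutant libraries. At the 205007 of these CpGs that have at most 10 CpGs in the 250 bp before and after them, 93.9% to 94.4% of CpGs were mixed in the double mutant. In the triple mutant 76.7% to 81.8% were still mixed and 18.1% to 23.3% had no methylated read, so the low level was spread over most of these CpGs.

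**Figure D2:**
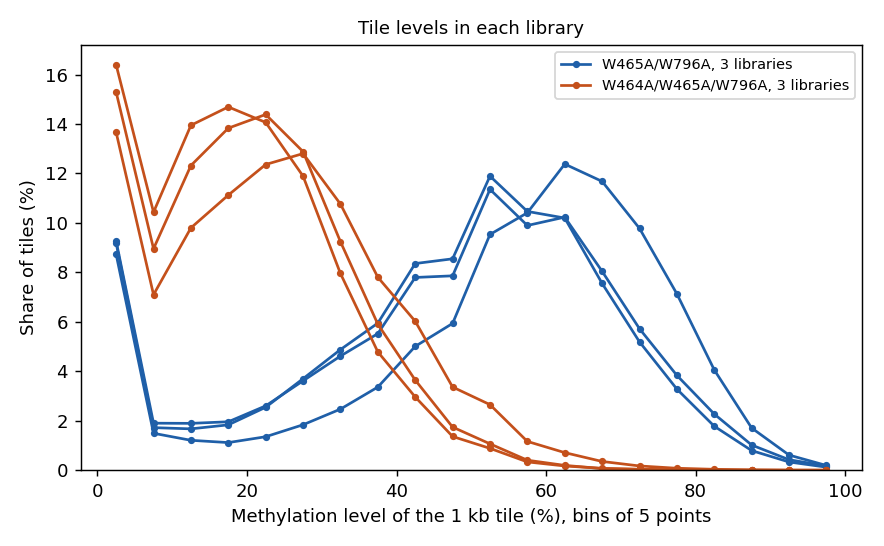
Share of tiles (%, vertical axis) by methylation level of the tile in bins of 5 points (horizontal axis), 1 line per library. The 3 W465A/W796A lines peak above 50%, with 8.72% to 9.26% of tiles in the lowest bin. In the 3 W464A/W465A/W796A lines the lowest bin is the fullest, with 13.7% to 16.4% of tiles, beside a broad peak below 30%.

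The fall was compared with a common shift on the log-odds scale, and no 1 kb tile was called as departing from it. The median change of log-odds, over tiles of 20% to 80% in the double mutant, was -1.49. When each tile was tested against that shift, 0 tiles (0%) lost more and 0 tiles (0%) lost less at the same threshold in the quasi-binomial fit, and 25885 had an unadjusted p below 0.05. The smallest adjusted p was 0.101. Limma, with each library's own shift, also called 0 in either direction, and 34706 tiles had an unadjusted p below 0.05. The 25885 and 34706 tiles with an unadjusted p below 0.05 are out of 285573. With 3 libraries against 3 and so many tiles, departures can be missed, so the 0 calls do not show that tiles shared the shift. The mean level of tiles under 20% in WT changed by less, -0.84. The count of departing tiles depends on the tile size. With 5 kb tiles, 13 tiles lost more than the common shift and 13 lost less. With 5 kb tiles and each library's own shift, which was added after seeing the data, 212 lost more and 105 lost less.

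WT methylation, measured in libraries that the comparison does not use, sorted the tiles into classes with different losses. Tiles of 80% to 100% in WT averaged 67.5%, 61.2% and 60.2% in the W465A/W796A libraries and 28.1%, 32.3% and 26.2% in the W464A/W465A/W796A libraries. They kept 45.8% ± 4.96 (SD, n = 3) of the double-mutant level. Tiles of 20% to 40% in WT averaged 25.9%, 17.6% and 20.7% in the double mutant and 5.68%, 8.90% and 6.53% in the triple mutant, and kept 32.9% ± 7.81 (SD, n = 3). The groups did not overlap in either class. Classes of 40% to 60% and of 60% to 80% lay between, with 35.8% and 40.9% kept. In each of the 3 triple-mutant libraries the share rose from the 20% to 40% class to the 80% to 100% class, by 12.9 points on average. Without W796A there was no such rise, since the W464A/W465A level was 73.4%, 74.2%, 73.2% and 73.1% of the W465A level in the 4 classes from 20% upwards. On the log-odds scale the changes ran the other way and differed less, from -1.28 in the 20% to 40% class to -1.43 in the 80% to 100% class. The 28690 tiles under 20% in WT, at 2.5% in the double mutant, kept 43.7% ± 9.95 (SD, n = 3), and their log-odds change was smaller, -0.84.

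**Figure D3:**
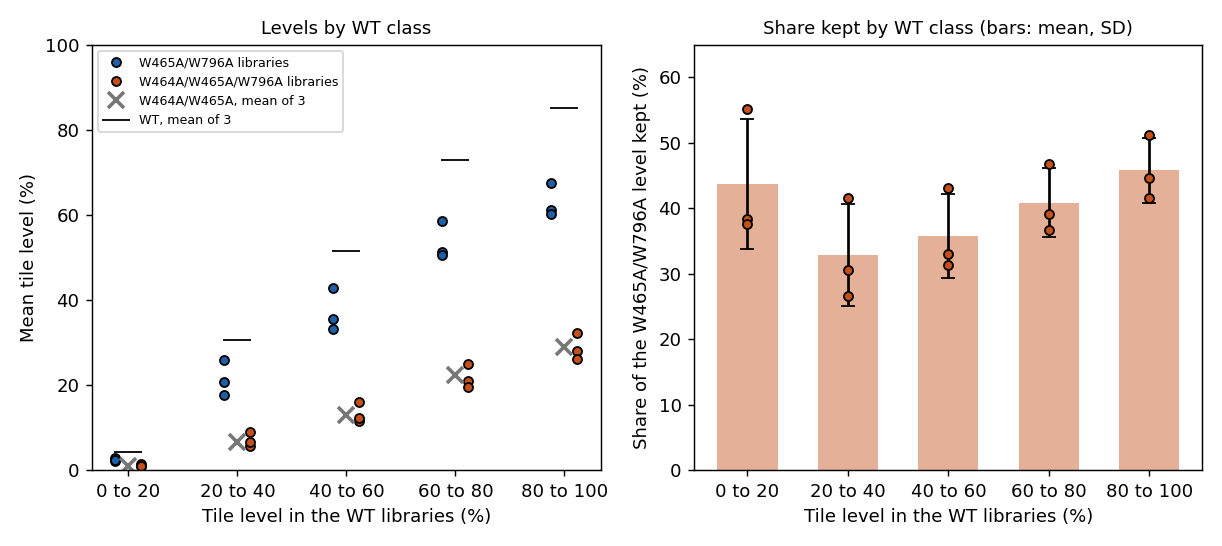
Left, mean tile level (%) by class of WT tile level (%), with points for each library of the 2 groups, crosses for the W464A/W465A mean and dashes for the WT mean. Right, share of the W465A/W796A level kept (%), with bars for the mean, error bars for SD of 3 libraries and points for libraries; it is lowest, 32.9%, in the class of 20% to 40% in WT.

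Gene features, CpG density and repeats differed in their level but hardly in the share they kept. Promoter CpGs (within 500 bp of a transcription start) had 4.64% with W465A/W796A and 2.02% with W464A/W465A/W796A and kept 43.5% ± 6.73 (SD, n = 3). Exon CpGs went from 42.5% to 17.3% and kept 40.9% ± 5.49. Intron CpGs went from 49.7% to 21.3% and kept 42.8% ± 4.95, and intergenic CpGs from 47.5% to 19.9% with 41.9% ± 4.99 kept. The share kept by intergenic CpGs was 1.68 points below that of promoter CpGs, with an SD over libraries of 2.03, which is within the spread between libraries. It widened to -4.18 and -15.6 points when CpGs needed 10 or 20 reads, and to -6.36 points when each read was counted once.

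Density was counted as reference CpGs in the 250 bp before and after a CpG. The share kept was 40.7% ± 4.22 at 1 to 5 CpGs, 43.3% ± 5.01 at 6 to 10, 42.7% ± 6.29 at 11 to 20 and 41.1% ± 7.63 at over 20 (SD, n = 3 each). Sparse minus dense was -0.46 points, with an SD of 6.03. Its sign differed between libraries left out, from -3.91 to 1.72 points. Repeat-masked CpGs fell from 47.9% to 19.7% and kept 41.1% ± 4.23, other CpGs 42.5% ± 5.19, a difference of -1.38 points with an SD of 1.26. That difference is about the size of the spread between libraries.

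The bases next to the CpG made a small difference. Over the 15 flanking contexts other than CCGG, the share kept ran from 40.3% at GCGA to 43.8% at TCGG, and these 2 contexts were picked as the extremes. TCGG minus GCGA was 2.37, 6.51 and 1.71 points in the 3 triple-mutant libraries, the same sign in each, with a mean of 3.53 and an SD of 2.60. ACGT kept 43.7% ± 4.03 (SD, n = 3). CCGG, the site that MspI cuts, has just 2905 usable CpGs at low level (7.92% and 3.67%), and kept 46.3% ± 4.96. ACGT minus CCGG was -2.62 points with an SD of 1.63, and this sign did not hold when each read was counted once, which gave 0.29 points.

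**Figure D4:**
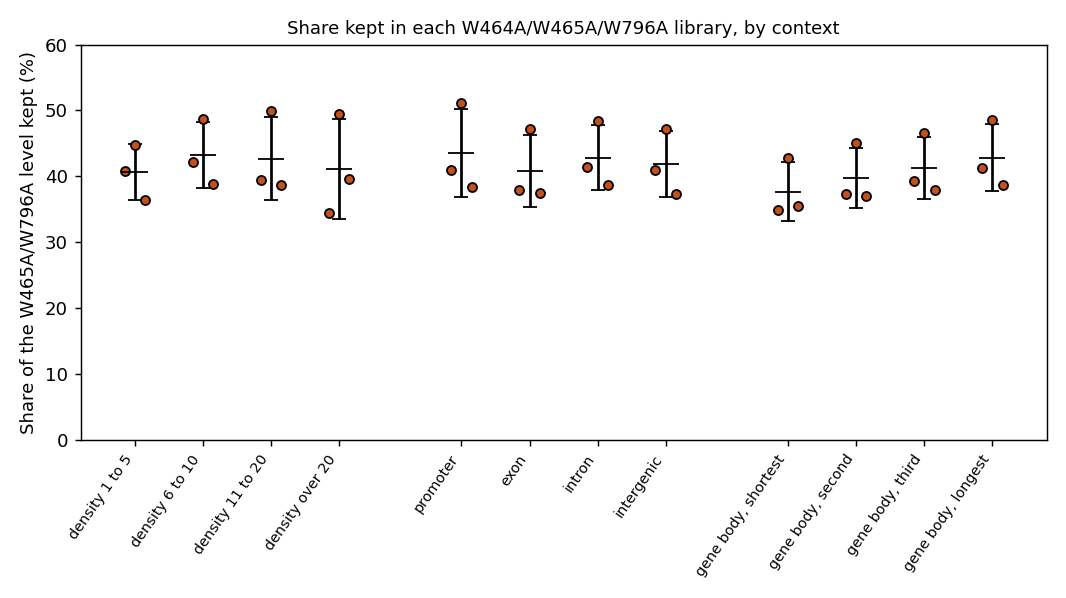
Share of the W465A/W796A level kept (%, vertical axis) by CpG density (CpGs in the 250 bp before and after), gene feature and length class of gene bodies; points are the 3 W464A/W465A/W796A libraries, with dashes at the mean and error bars for SD. Shares stay within 34.4% to 51.2% in every library and context drawn.

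Chromosomes kept similar shares. Over the autosomes the share ran from 41.1% on chromosome 7 to 43.0% on chromosome 13. The share of a library's reads that fell on chromosomes 8 and 11 differed between libraries. It is given relative to the median of the 6 libraries for the same chromosome. On chromosome 8 it was 1.24 and 1.22 in replicates 2 and 3 of W465A/W796A and 0.862 in replicate 1. On chromosome 11 it ran from 0.838 to 1.17. These chromosomes kept 42.6% and 42.4%, close to the share of 42.3% over all autosomes. Chromosome X fell from 29.2% to 11.2% and kept 38.3% ± 4.81 (SD, n = 3), with 15838 CpGs.

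W464A lowered methylation more in the presence of W796A than in its absence. Over the 1719527 CpGs with at least 5 reads in all 12 libraries, the W465A libraries had 26.9%, 18.6% and 19.12% and the W464A/W465A libraries 14.6%, 18.1% and 14.5%. Adding W464A to W465A alone thus changed the mean from 21.5% ± 4.63 to 15.7% ± 2.04 (SD, n = 3), by -5.82 points. Without replicate 1 of W465A this change was -3.15 points, and without each of the other 5 libraries it was -7.28 to -5.22 points. On the same CpGs, W465A/W796A had 36.8% ± 3.00 and W464A/W465A/W796A 15.5% ± 1.89 (SD, n = 3), a change of -21.3 points, or -22.4 to -19.6 points without each library. The 2 changes share no library. Their difference was -15.5 points with a standard error of 3.57.

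The triple mutant came to lie at the level of W464A/W465A. Their means differed by -0.18 points, less than the SD of either group. Of 192251 tiles, 87.0% had a triple-mutant level within 10 points of W464A/W465A, against 16.9% for W465A/W796A. The change with W464A was more negative with W796A in 15373 tiles (8%) and more positive in 5 (0.0026%), and 67469 tiles had an unadjusted p below 0.05. These tile calls are not stable. A fit of all 18 libraries called 0 tiles, and 31593 tiles had an unadjusted p below 0.05. In the 12-library fit, leaving out replicate 2 or 3 of W465A, replicate 2 of W464A/W465A, replicate 1 of W465A/W796A, or replicate 1 or 3 of W464A/W465A/W796A left 0 tiles. Without replicate 1 of W465A, the library at 26.9%, 53077 tiles were called. The difference of the mean changes was between -18.1 and -13.7 points in all 12 of these, but fell to -9.24 and -2.86 points when CpGs needed 10 or 20 reads.

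Highly methylated tiles of the double mutant differed in how much they kept, and the levels in W464A/W465A and W465A, both independent groups, followed. Among 40525 tiles of at least 60% with W465A/W796A, the median share kept was 44.5%, and the 5th and 95th percentiles were 27.1% and 63.9%. The 373 tiles that kept under 20% fell from 66.3% to 11.2%, and had 17.2% in W464A/W465A and 25.6% in W465A. The 14095 tiles that kept 40% to 50% fell from 67.0% to 30.1% and had 30.3% in W464A/W465A. The 101 tiles that kept at least 80% went from 66.1% to 56.1% and had 43.5% in W464A/W465A and 54.8% in W465A. WT levels rose less across these classes, from 77.9% to 86.3%. Repeat-masked CpGs made up 21.5% of CpGs in the first class, 11.8% in the class of 40% to 50% and 16.8% in the last, so their share did not run one way. The classes were drawn from the levels compared, so their own values are a description. Across these tiles Pearson's r between the levels of W464A/W465A/W796A and W464A/W465A was 0.628, and that with W465A was 0.614, given as a description over tiles that share libraries.

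The deepest falls in called tiles of protein-coding genes are named because they are the 10 largest among 93618 tiles that met the coverage and non-overlap rule. The tile of Odf2, which encodes a protein of sperm tails and centrosomes, had 83.6%, 91.4% and 82.2% with W465A/W796A and 2.86%, 8.57% and 4% with W464A/W465A/W796A. It fell by 80.6 points (adjusted p = 0.000577) and had 54.8% in W465A and 19.3% in W464A/W465A. The tile of Pard3, a cell polarity scaffold, had 91.6%, 67.9% and 79.2% and then 5.77%, 9.72% and 6.25%, a fall of 72.3 points. Both tiles are coding exons and neither holds repeat-masked CpGs.

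The tile of Lrmda went from 97.1%, 92.5% and 88.6% to 40%, 8% and 21.4%, with a wide spread in the triple mutant. In Sec23a, which encodes a coat protein of vesicles that leave the endoplasmic reticulum, the levels were 100%, 85% and 88% and then 20%, 15.6% and 36%. Prdm2, which encodes a histone methyltransferase, had 58.6%, 88.6% and 86.7% and then 8.33%, 16% and 13.9%. The groups do not overlap in any of these, as the rule required.

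Carf, a transcription factor gene, Ccser1, Mad1l1, a spindle checkpoint gene, Ankrd44 and Cntn5, a neural cell adhesion gene, fell by 64.9 to 68.2 points. The tiles of Carf, Ccser1 and Cntn5 consist of repeat-masked CpGs. In W464A/W465A the 10 tiles had 4.69% to 32.6%.

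Tiles that kept nearly all of their level were chosen as the 10 largest shares among 42080 tiles of at least 60% in the double mutant, and no test is given for them. The Gli2 tile, in an intron of a Hedgehog transcription factor gene, had 66.1%, 85.7% and 42.5% with W465A/W796A and 80%, 68.8% and 59.4% with W464A/W465A/W796A. It had 67.7% in W465A and 66.4% in W464A/W465A, libraries that did not choose it. All its usable CpGs are repeat-masked, and 7 of the 8 lie in or beside the CG run printed above. The Spock1 tile, in a proteoglycan gene, had 64%, 75.4% and 50% and then 44%, 88% and 55%, so both groups spread widely and overlap.

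In Ttn, which encodes the muscle protein titin, a tile of 11 CpGs with 89 to 248 reads per library had 70.9%, 55.1% and 63.7% and then 50%, 59.5% and 58.9%. A second Ttn tile, the one whose window is printed, had 57.9%, 50.7% and 68.2% and then 54.5%, 56.6% and 50.6%. It had 60.2% in W465A and 54.0% in W464A/W465A. Both tiles lie in the same coding exon of the gene. Ntn4 (netrin 4), Ccdc149, Bicc1, Ccn4, Cnih3, Itgb6 and Ebf3 kept 88.6% to 90.4%. In W464A/W465A, the 10 tiles had 32.2% to 66.4%, against 4.69% to 32.6% in the tiles that fell furthest.

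**Figure D5:**
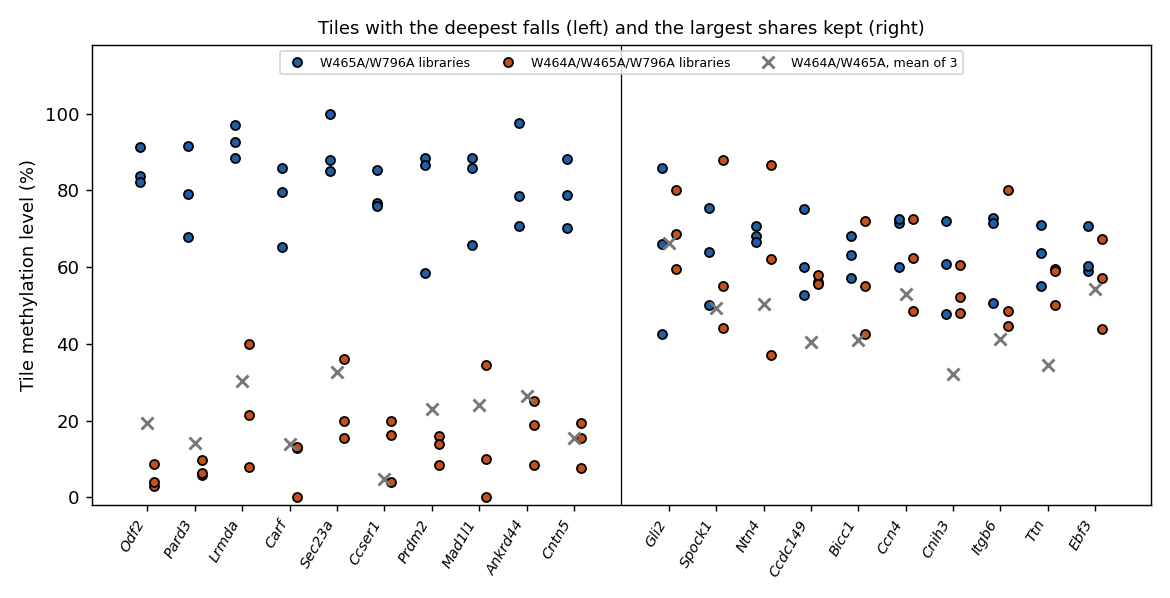
Tile methylation level (%, vertical axis) in each library for the 10 tiles with the deepest falls (left of the line) and the 10 with the largest shares kept (right), by gene; crosses are W464A/W465A means. On the left the groups are apart, as the choice required, and on the right they overlap.

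None of the largest departures from the common shift passed the test. Odf2, Lrmda, Sec23a, Pard3 and Nsd2, a histone H3 lysine methyltransferase gene, lay 44.1 to 51.5 points below the level expected from the shift, with adjusted p of 0.456 to 0.459. Gli2, Atic, a purine synthesis gene, Prkcb, a protein kinase C gene, the second Ttn tile and Ccn4 lay 30.2 to 37.3 points above it, with adjusted p of 0.456 to 0.482.

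Counts were also summed over whole genes. Of 18705 gene bodies with at least 10 usable CpGs, 17093 (91.4%) were lower with W464A/W465A/W796A and none was higher. Against each library's own median shift, a test added after seeing the data, 75 bodies lost more (0.401%) and 36 lost less (0.192%), and 4965 bodies had an unadjusted p below 0.05. Those calls depend on the shift and on single libraries. A single common shift left 0 and 1, and limma called 17 and 14. The balance turned without a minimum difference, to 218 that lost more and 1990 that lost less, and at 10 reads, to 32 and 45. Leaving out each library gave 10 to 127 and 20 to 49, with the fewest that lost more (10) without replicate 1 of W464A/W465A/W796A and the most (127) without replicate 2 of W465A/W796A. Without replicate 1 of W465A/W796A the counts were 31 and 20, of which 23 and 13 were also called with all libraries.

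Called bodies were short in both directions. The median length was 10443 bp for those that lost more and 15965 bp for those that lost less, against 26766 bp for all bodies tested. These include noncoding genes, with 69 of the 75 and 18 of the 36 protein-coding. Cdt1, a DNA replication licensing factor, had 69.9%, 55.5% and 59.8% with W465A/W796A and 10.5%, 17.97% and 16.1% with W464A/W465A/W796A. Its level was 12.6 points below that expected from the shifts (adjusted p = 0.00172). Mrps17, a mitochondrial ribosomal protein gene, had 67.2%, 48.5% and 60.3% and then 8.99%, 17.4% and 10.1%. In both genes the groups were far apart.

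Mrpl2, another mitochondrial ribosomal protein gene, went from 58.8% to 5.92%, and Ppib, a peptidyl-prolyl isomerase gene, from 70.02% to 19.7%. Rassf7, Zfp11, Cdc37 (a kinase chaperone), Mtfmt (mitochondrial tRNA formylation), Cstf1 (mRNA 3′ end cleavage), Pus1 (tRNA pseudouridine synthesis), Ruvbl2, Eif3g (translation initiation), Phb2 (prohibitin) and Cebpz were also called. Over the 75, the medians were 62.2% in W465A/W796A, 15.6% in W464A/W465A/W796A, 24.8% in W465A and 16.5% in W464A/W465A. All bodies tested had medians of 50.4% and 19.9% in the first 2 of these groups.

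Gm10718 stood first among the 36 bodies that lost less. It had 57.7%, 56.9% and 53.7% with W465A/W796A and 35.8%, 35.3% and 36.3% with W464A/W465A/W796A, which is 13.3 points above the level expected from the shifts (adjusted p = 0.00019). All of its 19 usable CpGs are repeat-masked, and reads of such sequence can come from copies elsewhere, so its level is uncertain. Pcdh18, a protocadherin gene, had 40.3%, 32.1% and 28.9% and then 21.1%, 30.3% and 19.5%, and the groups overlap. Chrna5, a nicotinic receptor subunit gene, had 34.3%, 36.5% and 25.4% and then 18.5%, 26.5% and 18.2%.

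Fads1 (fatty acid desaturation), Krt19 (keratin 19), Bcorl1, Cers4 (ceramide synthesis), Ehf (an epithelial transcription factor), Sspn, Cacng1 and Kcnj15 (a potassium channel) kept 60.2% to 68.4%. The 36 had medians of 47.3% and 29.2% in the double and triple mutant and 32.1% and 24.9% in W465A and W464A/W465A. The triple-mutant libraries lay below all double-mutant libraries in 29 of the 36, and in all 75 of the bodies that lost more.

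Gene length went with the share kept. Protein-coding bodies of at least 20% in the double mutant were put into 4 length classes of 3337 or 3338 genes. The shortest, 1043 to 15413 bp, went from 48.3% to 18.2% and kept 37.7% ± 4.41 (SD, n = 3). The next 2 classes kept 39.8% ± 4.59 and 41.3% ± 4.64. The longest, from 72573 bp, went from 49.7% to 21.3% and kept 42.8% ± 5.11. The rise from shortest to longest was 5.14 points with an SD over libraries of 1.63, and it was present in each W464A/W465A/W796A library, from 34.9% to 41.2%, from 42.8% to 48.6% and from 35.5% to 38.7%. Of the 75 bodies that lost more, 69 are protein-coding, and 51, 14, 4 and 0 fell in these classes from shortest to longest. Of the 36 that lost less, 18 are protein-coding, and 10, 3, 5 and 0 fell in these classes. Both directions had the most called bodies in the shortest class and 0 in the longest, and calls needed a departure of 10 points. These counts therefore do not bear on the rise in the share kept. In the libraries without W796A, which are independent, the W464A/W465A level was 70.2%, 72.9%, 74.5% and 74.95% of the W465A level in the same classes.

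Promoters mostly had little methylation to lose. Of 19290 promoters with at least 3 usable CpGs, 2729 (14.1%) were lower and none was higher, and 4570 had at least 10% with W465A/W796A. The median share kept among those was 39.7%. Against the library shifts, 6 promoters lost more (0.0311%) and 4 lost less (0.0207%). Aurkc, a meiotic kinase gene, had 58.1%, 42.7% and 50.5% and then 3.66%, 6.67% and 5.41%, which is 13.9 points below the level expected (adjusted p = 0.0481). Olfr323, an olfactory receptor gene, had 72.0%, 63.0% and 57.4% and then 8.57%, 13.8% and 7.89%. Ston1, an endocytosis gene, went from 47.1% to 6.29%. Gm26768, a long noncoding RNA gene, had 59.4%, 42.6% and 43.9% and then 37.0%, 40.0% and 34.7%, and lost less.

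Promoters of germline genes, which ES cells silence by methylation, lost methylation as a group. Their mean over 23 measured promoters was 41.5%, 30.4% and 40.5% in the W465A/W796A libraries and 11.6%, 19.11% and 13.9% in the W464A/W465A/W796A libraries. It fell by 22.6 points, with an exact two-sided permutation p of 0.1, and 39.6% was kept. Of the 23, 16 were lower, against 14.1% of all promoters, and the other 7 did not pass. These shares are not alike in their base, since 22 of the 23 had at least 10% with W465A/W796A, against 4570 of all 19290 promoters. Among promoters of at least 10%, the median share kept was 39.2% in this list and 39.7% over all. Of the 23, 0 were called as departing from the library shifts. Dazl, a germ cell RNA-binding protein gene, had 49.3%, 41.9% and 48.6% and then 15.4%, 26.9% and 14.8% over 60 CpGs (adjusted p = 0.0101). Dpep3, a testis dipeptidase gene, went from 62.9% to 32.5%, and Taf7l, a testis transcription factor gene, from 47.9% to 13.9%. Rpl10l, a testis ribosomal protein gene, went from 35.6% to 6.72%.

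Among the promoters that did not pass, Mov10l1, a piRNA pathway helicase gene, had 64.4% and 33.5% over 3 CpGs, and Wfdc15a 46.8% and 26.0%. The median difference of the list was -24.1 points, against -0.30 over all promoters, most of which are unmethylated. All 16 measured germline gene bodies were lower, near the 91.4% of all bodies.

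Olfactory receptor promoters are CpG-poor and methylated in ES cells, and 34 of 65 measured were lower, against 14.1% of all promoters. These shares are not alike in their base, since 64 of the 65 had at least 10% with W465A/W796A. Of all 19290 promoters, 4570 had at least 10% and 2729 were lower. The mean of the olfactory receptor promoters went from 47.1% to 18.9%, and 40.2% was kept. Olfr1513 had 72.9% and 18.8%, and Olfr524 73.2% and 33.5%. Protocadherin promoters (Pcdh genes) went from 6.94% to 2.12% on average, with 3 of 43 lower and 6 of 43 at 10% or more with W465A/W796A. Among them Pcdha8 went from 22.7% to 2.79% over 18 CpGs, beside 78.6% in WT, 2.87% in W465A and 2.63% in W464A/W465A. Pcdh15 went from 67.5% to 18.9%. Of 334 promoters of Zfp genes 23 were lower, Zfp982 with 62.8% and 21.2% among them, against 14.1% of all promoters. Of the 334, 33 had at least 10% with W465A/W796A. The median share kept by those 33 was 25.3%, against 39.7% for all promoters of at least 10%. Their median departure from the level expected from the library shifts was -2.25 points, against 0.50 for all promoters of at least 10%. Of the 334, 0 were called as departing.

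Imprinted gene promoters had almost no methylation to begin with. Their mean over 22 was 4.24%, 3.77% and 3.98% in the double mutant and 1.09%, 2.83% and 1.82% in the triple mutant (exact two-sided permutation p = 0.1). Of the 22, 0 were called lower, against 14.1% of all promoters, and 2 had at least 10% with W465A/W796A. An unadjusted p below 0.05 was found in 8 of the 22, against 6472 of all 19290 promoters. The fall of 2.09 points moved with the processing, to 4.24 points at 10 reads, 3.66 points with promoters of 1000 bp either side and 0.38 points (exact p = 0.2) at 20 reads. Slc38a4 had 31.3%, 23.4% and 14.3% and then 5.87%, 22.8% and 13.0%, which overlap. Meg3 had 13.5% and 6.08%. Of their gene bodies 16 of 20 were lower, against 91.4% of all bodies, with means of 36.6% and 15.6%. Of the 20 bodies, 18 had at least 10% with W465A/W796A, against 17643 of all 18705.

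Promoters of pluripotency genes were at 3.27% and 1.40%, with 0 of 16 called lower (2 with an unadjusted p below 0.05), against 14.1% of all promoters. Of these 16, 3 had at least 10% in the double mutant. Their bodies were at 22.7% and 7.44%, with 10 of 17 lower, against 91.4% of all bodies. Of the 17 bodies, 11 had at least 10% in the double mutant, against 17643 of all 18705. Among bodies of at least 10%, the median share kept was 30.9% over the 11 in this list and 40.95% over all bodies. The median departure of those 11 from the level expected from the library shifts was 0.48 points, against 1.11 over all such bodies. In this list, 0 of 17 bodies were called as departing. The lower share therefore does not show a loss beyond these shifts. Housekeeping promoters were unmethylated in both groups, 0.387% and 0.31%, with 0 of 18 lower (2 with an unadjusted p below 0.05). Trophoblast genes had 1 of 9 promoters lower, and 2 of 9 had at least 10% in the double mutant. The lower one was Elf5, a trophoblast transcription factor gene known to be methylated in ES cells. It had 74.1%, 74.4% and 64.7% and then 22.6%, 24.4% and 32.4%. Hox promoters had 2.93% and 2.27%, with 0 of 41 lower and 5 with an unadjusted p below 0.05, and 3 of 41 were at 10% or more in the double mutant. Vomeronasal receptor promoters (Vmn genes) had 1 of 4 lower, Vmn1r65, and 3 of 4 at 10% or more in the double mutant.

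Genes of the methylation machinery and of heterochromatin were mostly unmethylated at their promoters. Of 28 promoters 2 were lower, against 14.1% of all promoters, and 2 had at least 10% with W465A/W796A. Tet1, which oxidises methylated cytosine, had 68.0%, 35.9% and 49.6% and then 1.63%, 12.04% and 9.44% over 9 CpGs (adjusted p = 0.0141). Dnmt3l, a cofactor of the de novo methyltransferases, had 54.1%, 20% and 36.4% and then 6.78%, 3.75% and 7.94% (adjusted p = 0.029). Both stood at 5.61% to 11.2% in W464A/W465A. In gene bodies, 24 of 25 of these genes were lower, against 91.4% of all bodies. The gene body of Dnmt1 went from 53.5% to 19.2%, and that of Zfp57, a reader of methylated imprints, from 55.2% to 11.8%. RNA was not measured, so no expression level stands beside these values.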

How the data were processed

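In the authors' deposited table, each CpG has per library a methylated count and a total count of reads, whole numbers with no normalization per the file headers. The submitters' processing notes name cutadapt 1.2.1, Bismark 0.18.1 and Bowtie 1.2 with the mm10/GRCm38 build. All 21867550 positions matched a CpG of GRCm38, and genes came from GENCODE vM21. Removal of duplicate reads is not given in the sources used here, and no control gave the conversion rate.

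The members, gene lists and tests were chosen with earlier results of these data known. CpGs needed 5 reads in the 6 libraries. The depth was 63624159 to 100749239 CpG calls per library, and precision rests on the spread between libraries. Means were compared by exact permutation tests. Summed tile counts (1 kb, at least 3 CpGs) entered a quasi-binomial logistic model of these 6 libraries alone. Overdispersion was squeezed across tiles as in limma (prior 1.94 with 4.66 degrees of freedom). An F test followed, with Benjamini-Hochberg adjustment over all tiles and a minimum difference of 10 points. Departures used the same model with the median log-odds change as a fixed offset, or each library's own. Promoters (500 bp either side of a start, at least 3 CpGs) and gene bodies (the gene without its promoter, at least 10 CpGs) were fitted likewise. The W464A changes with and without W796A were compared by an interaction in 12 libraries. Python 3.11.15, numpy 2.4.6 and scipy 1.17.1 were used, with limma 3.58.1 (log2 ratios with 0.5 added) and edgeR 4.0.16 in R 4.3.3 as alternatives. The fits were tested on simulated data.

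The named tiles are the 10 deepest falls among called tiles with at least 5 CpGs, 20 reads per library, no overlap of groups and a protein-coding gene, 1 per gene. Beside them stand every tile called higher, the 10 largest shares kept among tiles of at least 60% in W465A/W796A, and the 5 largest departures each way. Gene bodies and promoters are named from among those with the smallest p, but some of these were passed over. Those passed over include the bodies of Champ1, Sec23ip, Cactin, Wdr53 and Tmem246 and of noncoding genes. List genes are named among those of at least 10% in W465A/W796A, and others with a count beside them were chosen after their values were seen. Same-numbered libraries of the 2 groups did not deviate together (r over tiles -0.045, -0.024 and 0.012), so the numbers were not treated as pairs.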

Additional observations from a re-analysis of the deposited data

Results flagged for a closer look

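The W464A change differed with and without W796A in 15378 tiles by the interaction term of the 12-library fit, 15373 of them more negative with W796A. What drew attention is that the same substitution changed the mean level by -21.3 points with W796A and by -5.82 points without it (-3.15 points without replicate 1 of W465A), a difference of -15.5 points with a standard error of 3.57. The W465A libraries were at 26.9%, 18.6% and 19.12% and the W465A/W796A libraries at 40.3%, 35.2% and 35.0%, without overlap, whereas the 6 libraries that carry W464A lay between 14.04% and 18.1%. In the count of tiles, leaving out 1 of 6 of the 12 libraries left 0 calls, as given above.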

How the results depend on the processing

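The mean difference kept its direction in every alternative and lay between -24.2 and -21.2 points without each library in turn, but shrank to -15.8 and -5.11 points at minimums of 10 and 20 reads, where CpGs with over 20 others in the density window make up 366352 of 714514 and 120895 of 137727. Tiles called lower numbered 179444 to 216233 without each library, 46452 of 72602 and 3081 of 11273 at those minimums, 106402 in the fit of all 18 libraries with fewer tiles, and 419406 with at least 1 CpG per tile. Tiles called higher numbered 1 to 3 without each library, 0 at both minimums, with 5 kb tiles, with a 25-point minimum and in the fit of all libraries. They numbered 21 with at least 1 CpG per tile, 74 without a minimum difference, 2 without squeezing and with limma, 3 with edgeR, and 132 among single CpGs. With the replicate block, 198604 tiles were lower and 2 higher, and the mean difference of -23.1 points had an exact p of 0.25, the smallest that 3 pairs allow.

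Departures from the common shift were 0 without each library and 13 each way with 5 kb tiles, and with library shifts as well 212 and 105. Tiles with a different W464A change numbered 0 to 53077 without each library, 2012 and 9 at the 2 minimums, 184 without squeezing and 0 in the fit of all 18 libraries. The difference of the mean changes was -18.1 to -13.7 points without each library and -9.24 and -2.86 points at the minimums. The share kept by intergenic minus promoter CpGs was -2.51 to -0.54 points without each library, -4.18 and -15.6 at the minimums and -6.36 with each read counted once. For repeat-masked minus other CpGs it was -2.10 to -0.94, -3.38 at 20 reads and -2.81 with reads counted once. For ACGT minus CCGG it was -3.74 to -1.04, -0.47 and 0.44 at the minimums and 0.29 with reads counted once. For sparse minus dense it was -3.91 to 1.72. Germline promoters fell by 20.6 to 26.1 points and imprinted promoters by 1.67 to 2.54 without each library, and imprinted promoters by 4.24 and 0.38 points at the minimums and 3.66 with 1000 bp either side.

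The alternatives for gene bodies, library shifts, WT classes and gene length were chosen after seeing the data. Bodies that lost more numbered 10 to 127 without each library, 32 at 10 reads, 0 and 218 with a 25-point minimum and none, 1 without squeezing, 0 with 1 common shift and 17 with limma. Bodies that lost less numbered 20 to 49, 45 at 10 reads, and 0, 1990, 0, 1 and 14 under the last 5. The rise with gene length was 4.54 to 6.07 points and that over WT classes 10.3 to 15.0 without each library. The cause of these movements was not tested. Median coverage of 10 to 16 reads limits single CpGs, and 3 libraries per group limit what single tiles can show.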
